A study of Mus musculus with 4 samples.

Results

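Immediate-early response genes are transcribed within minutes of a stimulus, without new protein synthesis. Here they are a list of 37 genes, of which 36 were found in the gene list of the libraries and 1, Cebpd, was not analysed here. The 36 genes stand among 27998 genes in all. They were followed in 4 single-cell libraries of mouse heart cells, at embryonic day 12 (E12), embryonic day 15 (E15), postnatal day 2 (P2) and 8 weeks of age (Adult), to see how their level differed between stages and between the endocardium and the coronary endothelium.

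All hearts were C57Bl6J. Cells were sorted as positive for CD31, an endothelial surface protein, and negative for CD45, a leukocyte surface protein, and were frozen in DMSO before use. Each stage was 1 library of pooled hearts, which came from 37 E12, 48 E15, 21 P2 and 6 adult animals. Embryonic hearts were digested with Collagenase/Dispase, for longer at E15 than at E12, and dead cells were removed with a kit after thawing. P2 and adult hearts were digested with Collagenase II and then with Collagenase/Dispase, and thawed cells were sorted again for live cells. Adult samples also had a step that lysed red blood cells. From E15 to P2, stage, enzymes and handling after thawing therefore cannot be told apart. Stage and digestion time cannot be from E12 to E15, nor stage and red cell lysis from P2 to the adult. In every comparison stage and library cannot be told apart, so stages were compared without a test.

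The best known of these genes encode AP-1, a transcription factor made of a Jun protein paired with a Fos or another Jun protein. MAP kinase cascades, calcium, cyclic AMP and the actin cytoskeleton reach their promoters through serum response factor and CREB, and shear stress does so in endothelium. Their products include further transcription factors and proteins that end the response, such as the MAP kinase phosphatase Dusp1 and the mRNA decay factor Zfp36. The same genes are also known to be switched on when tissue is digested to single cells.

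Promoter windows of RefSeq (GRCm38.p6), 300 bases from 250 before the transcript start, were matched for 29 of the 36 genes. Egr1, Egr3, Ier2, Klf10, Ctgf, Myc and Nfkbiz had no entry. The 4 windows printed here belong to genes that the results below turn on. Capitals mark TGACG, the core of the cyclic AMP response element bound by CREB, or its reverse complement where it lies on the other strand, and TATAAA, which core promoters often hold near the start.
Fos, chr12:85473640-85473939, plus strand: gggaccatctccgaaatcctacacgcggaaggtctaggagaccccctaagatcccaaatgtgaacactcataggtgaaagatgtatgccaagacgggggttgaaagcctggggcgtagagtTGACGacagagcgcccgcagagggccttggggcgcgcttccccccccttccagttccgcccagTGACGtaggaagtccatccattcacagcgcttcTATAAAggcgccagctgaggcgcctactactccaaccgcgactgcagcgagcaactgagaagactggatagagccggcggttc
Junb, chr8:84978699-84978998, minus strand: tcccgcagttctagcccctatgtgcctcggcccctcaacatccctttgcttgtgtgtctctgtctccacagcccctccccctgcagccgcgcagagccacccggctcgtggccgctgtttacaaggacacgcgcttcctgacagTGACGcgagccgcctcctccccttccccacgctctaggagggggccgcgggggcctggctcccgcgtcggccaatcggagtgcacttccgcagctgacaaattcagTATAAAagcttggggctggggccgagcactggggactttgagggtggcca
Dusp1, chr17:26508423-26508722, minus strand: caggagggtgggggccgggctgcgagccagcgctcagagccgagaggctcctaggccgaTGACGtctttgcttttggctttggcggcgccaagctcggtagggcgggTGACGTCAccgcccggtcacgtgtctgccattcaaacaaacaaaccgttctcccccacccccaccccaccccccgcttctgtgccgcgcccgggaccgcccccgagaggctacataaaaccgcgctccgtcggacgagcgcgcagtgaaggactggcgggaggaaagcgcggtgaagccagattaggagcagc
Nr4a1, chr15:101266596-101266895, plus strand: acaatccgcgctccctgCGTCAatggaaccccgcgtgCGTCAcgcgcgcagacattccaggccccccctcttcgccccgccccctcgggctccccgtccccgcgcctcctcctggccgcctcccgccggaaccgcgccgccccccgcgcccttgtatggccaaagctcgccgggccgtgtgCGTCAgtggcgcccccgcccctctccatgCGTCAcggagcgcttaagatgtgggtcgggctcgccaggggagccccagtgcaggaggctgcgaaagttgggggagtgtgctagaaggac

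The Fos window held TGACG at 2 places, beginning 129 and 66 bases before the start, and TATAAA beginning 33 bases before it. Dusp1 held the whole palindrome TGACGTCA beginning 143 bases before the start, and Nr4a1 held TGACG at 4 places. Of the 29 genes, 15 held TGACG in at least 1 window (51.7%), against 23.1% of the 27025 genes of the table. The palindrome, which contains TGACG, was held by 3 genes (Btg2, Dusp1 and Maff, 10.3%, against 2.03%). TATAAA was held by 10 genes (34.5%, against 15.7%), and the loose NF-kB site by 24 (82.8%, against 53.5%). The AP-1 site, TGACTCA or TGAGTCA, was found for Csrnp1 alone (3.45%, against 5.95%), and the CArG box of serum response factor for Zfp36 alone (3.45%, against 1.81%). Some genes have several windows that overlap, and a match of letters is a description and not a bound site.

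Values are unique molecular identifiers (UMIs), 1 for each captured transcript, summed over cells and given as counts per 1000000 UMIs (CPM). Since 3′ ends are counted, gene length does not enter the CPM. Intervals in parentheses are exact 95% intervals that cover counting error only and leave out differences between animals. The E12 library held 5732 cells, the barcodes with the most UMIs, and E15, P2 and Adult held 6062, 5884 and 4242 cells. Median depth was 1241, 1013, 4532 and 1510 UMIs per cell. Coronary cells had at least 2 UMIs of Fabp4, Cldn5 and Aplnr and more of these than of Npr3 and Tmem108 (113, 1254, 4596 and 4077 cells in order of stage). Endocardial cells had more of Npr3 and Tmem108 (1716, 2115, 1082 and 75 cells). The limit of 2 UMIs is reached more readily in the deeper P2 library. Of the E12 endocardial cells, 596 had no UMI of Pecam1, Cdh5 or Egfl7, nor had 545 of those at E15. Between 25 and 60 cell barcodes were shared by any 2 libraries.

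The endothelial gene Pecam1 stood at 166 to 1327 CPM in the endocardial and coronary classes at every stage, but it does not tell these classes apart. In endocardial cells it was at 166 CPM at E12 and 248 CPM at E15, against 118 and 243 CPM in all cells of those libraries. The artery class, at least 3 UMIs of Cxcl12, Glul, Alpl and Nebl, went against its name in the embryo. Its 332 cells at E12 had Cxcl12 at 2536 CPM but Alpl at 0 and Pecam1 at 26.6 CPM, and 257 of them had no UMI of Pecam1, Cdh5 or Egfl7. The 69 cells at E15 were mixed, with Alpl at 0 and the fibroblast collagen Col1a1 at 2130 CPM but Pecam1 at 165 CPM, and 41 of them had no UMI of Pecam1, Cdh5 or Egfl7. These embryonic cells are called Cxcl12-high cells below. The 6 leukocyte markers summed to 0 to 15.1 CPM in the coronary and endocardial cells of the other stages but to 180 CPM in adult coronary cells, where all 6 were found, and to 4.79 CPM in adult endocardial cells. The 4 fibroblast markers reached 3271 CPM in adult endocardial cells, nearly all from Dcn and Lum with Col1a1 at 0, and 594 CPM in adult coronary cells.

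In coronary cells the summed level of the 36 genes was 1873 CPM (1705 to 2053) in the E12 library and 2774 CPM (2695 to 2855) in the E15 library. It was 10285 CPM (10244 to 10326) at P2, and adult cells reached 15088 CPM (14998 to 15178). In endocardial cells it was 2723 CPM (2658 to 2789), 3077 CPM (3008 to 3147), 5191 CPM (5129 to 5253) and 4953 CPM (4655 to 5264). The coronary level thus lay below the endocardial level in both embryonic libraries and above it in both postnatal ones. At E15 this was not beyond counting error once cells with UMIs of other cell types or without an endothelial UMI were left out. The Cxcl12-high and artery cells stood at 4186, 5994, 13244 and 15794 CPM. Cells with no UMI of Pecam1, Cdh5 or Egfl7, called non-endothelial by the rule, were also high. They stood at 3516, 4676, 17782 and 18952 CPM, the P2 value from 13 cells. This class also held endothelial cells. Of its 1867 cells at E15, 545 were also in the endocardial class and 181 in the coronary class, and the endothelial gene Emcn stood at 261 CPM. Its size moved with depth, to 1420 cells at P2 with cells thinned to 500 UMIs.

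**Figure D1:**
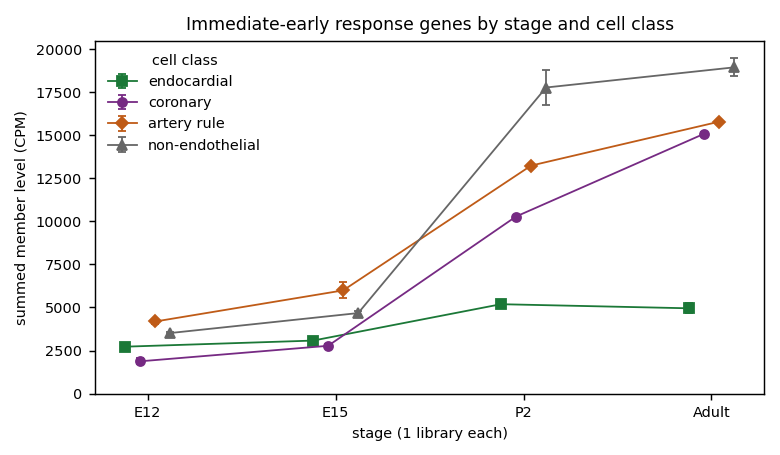
Summed level of the 36 immediate-early response genes (vertical axis, CPM) at the 4 stages (horizontal axis, 1 library each). Cells are endocardial, coronary, artery-rule and non-endothelial, the last being those with no UMI of Pecam1, Cdh5 or Egfl7. Bars are exact 95% Poisson intervals. Coronary cells reach 10285 CPM at P2 and 15088 CPM in the adult, while endocardial cells stay between 2723 and 5191 CPM.

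Coronary cells at E15 held 1.48 times the summed level at E12 (1.35 to 1.63), P2 cells 3.71 times that at E15 (3.60 to 3.82), and adult cells 1.47 times that at P2 (1.46 to 1.48). The endocardial ratios were 1.13 (1.09 to 1.17), 1.69 (1.64 to 1.73) and 0.954 (0.896 to 1.02). The step from E15 to P2 was the largest of the 3 in both classes, and it was larger in coronary cells. The median gene of all those measured moved by a log2 ratio of 0.35 in coronary and 0.26 in endocardial cells over that step, against 1.93 and 0.80 for the median member. Leaving out cells with a UMI of any leukocyte, fibroblast or mural marker, and cells with no UMI of Pecam1, Cdh5 or Egfl7, gave coronary ratios of 1.38, 4.11 and 1.39.

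Single genes were compared where both groups together held at least 50 UMIs. From E12 to E15, 8 of 25 members in coronary cells were 2-fold or more higher, as were 8.73% of all genes measured, and 0 were 2-fold or more lower (2.33% of all genes). From E15 to P2, 25 of 35 were higher (17.6%) and 1, Ctgf, was lower (4.08%). From P2 to the adult, 8 of 35 were higher (9.97%) and 3 were lower (12.3%). The share of members that were higher stood above that of all genes most at the step across birth. At the step from E12 to E15 the counts turned with depth, to 1 higher and 3 lower with all cells thinned to 500 UMIs, which left 20 coronary cells at E12, and a minimum of 200 UMIs a gene gave 3 higher.

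In endocardial cells 2 of 32 members were 2-fold or more higher from E12 to E15 (2.46% of all genes) and 0 were lower (2.67%). From E15 to P2, 15 of 35 were higher (11.9%) and 0 were lower (4.07%). From P2 to the adult 9 were higher (8.18%) and 5 were lower (14.3%), among 35 measured. The 75 adult endocardial cells hold only 1034 member UMIs, and several of these calls rest on fewer than 10 UMIs.

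Among the 6 AP-1 subunit genes, Fos had the most UMIs of any member. It stood in coronary cells at 90.6, 218, 1600 and 1960 CPM from E12 to the adult. In endocardial cells it stood at 260, 307, 649 and 163 CPM. Fos was thus the largest coronary member at both postnatal stages, while its adult endocardial level was below every earlier one, on 34 UMIs. The adult-to-P2 ratio of Fos was 1.23 (1.20 to 1.25) in coronary and 0.251 (0.173 to 0.351) in endocardial cells.

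Junb, a Jun protein that often restrains Jun, had the highest coronary ratio across birth, 8.79 (7.70 to 10.1), at 82.3, 131, 1157 and 1474 CPM. Its endocardial levels were 61.0, 128, 371 and 364 CPM. Jun, the founding AP-1 partner of Fos, was at 65.9, 128, 622 and 1464 CPM in coronary cells and at 244, 224, 408 and 321 CPM in endocardial cells. Unlike Fos and Junb, Jun was still 2.35 times higher (2.30 to 2.41) in adult than in P2 coronary cells. Fosb, a close relative of Fos, stood at 16.5, 30.4, 119 and 126 CPM in coronary cells and at 57.0 to 78.4 CPM in endocardial cells of all stages. Fosl2 stayed under 50 CPM in both classes.

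Jund, the Jun protein that is made constitutively in many cells, was lower in adult than in P2 coronary cells, unlike Fos, Jun and Junb. It was the largest member in the embryo, at 346 and 399 CPM in coronary and 519 and 508 CPM in endocardial cells. At P2 it stood at 682 and 549 CPM. In the adult it was at 164 CPM in coronary and 62.3 CPM in endocardial cells, that is 0.241 (0.227 to 0.256) and 0.113 (0.0603 to 0.194) times the P2 level. Jund was thus lower in the adult in both classes, while Jun was at 2.35 times its P2 level in coronary and 0.787 times (0.608 to 1.00) in endocardial cells.

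Among zinc finger and nuclear receptor factors, Egr1, which serum response factor drives, stood at 53.5, 105, 222 and 258 CPM in coronary and 189, 145, 100 and 192 CPM in endocardial cells. Its endocardial level was thus higher at E12 than at P2, whereas its coronary level was lowest at E12. Egr3 was at or near 0 throughout, with 12 UMIs in all cells. Nr4a1, an orphan nuclear receptor induced by many stimuli, was at 37.1, 44.6, 90.6 and 111 CPM in coronary cells and at 30.1 to 67.1 CPM in endocardial cells. Its relative Nr4a2 had 0 UMIs in E12 coronary cells and stood at 35.6 CPM in the adult. Klf6, a Kruppel-like factor, was 2.79 times higher (2.67 to 2.92) in adult than in P2 coronary cells, at 491 CPM. Klf10, a target of TGF-beta, was the exception in this group, with 165 CPM at P2 and 97.0 CPM in adult coronary cells, a ratio of 0.587 (0.541 to 0.636).

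Of the 3 bZIP partners, proteins that pair with AP-1 or related factors, Atf3 is the stress-induced one. Atf3 stood at 20.6, 26.2, 156 and 290 CPM in coronary cells and at 22.9 to 52.7 CPM in endocardial cells. Cebpb, a factor of the acute phase response, was low and lay at 26.5 CPM in P2 and 6.68 CPM in adult coronary cells. Maff, a small Maf protein, stood at 28.0 to 56.3 CPM in coronary and 10.1 to 91.0 CPM in endocardial cells. Only Atf3 of these 3 was 2-fold or more higher across birth in coronary cells, at a ratio of 5.96 (4.43 to 8.21).

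The immediate early response proteins were led by Ier2, at 140, 201, 724 and 709 CPM in coronary and 121, 188, 327 and 287 CPM in endocardial cells. All 3, Ier2, Ier3 and Ier5, were 2-fold or more higher in P2 than in E15 coronary cells. None of the 3 was past 2-fold between P2 and adult coronary cells. In adult endocardial cells Ier3 had 3 UMIs, 0.220 times (0.0451 to 0.647) the P2 level.

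The 7 feedback regulators summed to 387, 648, 2331 and 4121 CPM in coronary cells. Dusp1, which dephosphorylates MAP kinases, had the highest ratio across birth of this group, 7.59 (6.53 to 8.88), at 49.4, 102, 772 and 1676 CPM. Its endocardial levels were 50.5, 69.1, 251 and 278 CPM. Dusp1 thus differed little between the classes at E12 and was 6.03 times higher (4.66 to 7.95) in coronary cells in the adult. Socs3, the inhibitor of cytokine receptor signalling, stood at 16.5, 25.6, 186 and 299 CPM in coronary cells. Nfkbia, which encodes the NF-kB inhibitor IkB-alpha, was at 49.4, 134, 409 and 721 CPM in coronary cells and was the largest member in adult endocardial cells at 651 CPM. Btg2, an antiproliferative gene, reached 714 CPM and Zfp36 343 CPM in adult coronary cells. Nfkbiz, an atypical IkB protein, was low at 8.23, 9.52, 39.3 and 51.3 CPM in coronary cells. Zfp36l1, a relative of Zfp36, was the steady member of this group, between 181 and 317 CPM in coronary and 249 and 378 CPM in endocardial cells.

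Of the secreted and signalling effectors, Sgk1, a serum- and glucocorticoid-induced kinase, stood at 86.4, 109, 521 and 879 CPM in coronary cells. Cyr61, a matricellular protein and a target of the YAP coactivator, was at 12.3, 69.6, 314 and 354 CPM. Ctgf, another YAP target of the same protein family, did not follow Cyr61. It stood at 28.8, 9.52, 4.06 and 9.88 CPM in coronary cells and reached 95.8 CPM, from 20 UMIs, in adult endocardial cells. Rhob, a small GTPase, was 2.61 times higher (2.51 to 2.71) in adult than in P2 coronary cells, at 616 CPM.

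Cdkn1a, which encodes the cell cycle inhibitor p21, had the highest adult-to-P2 ratio of any member in coronary cells, 5.07 (4.85 to 5.29). It stood there at 16.5, 33.3, 145 and 737 CPM, and at 10.9, 14.3, 40.3 and 81.4 CPM in endocardial cells. Per1, a clock gene, followed with a ratio of 4.38 (3.67 to 5.23) and 41.4 CPM in the adult. Gadd45g, a stress-induced growth arrest gene, was at 24.7, 71.4, 345 and 402 CPM in coronary cells. Gadd45b reached 65.2 CPM and Csrnp1 85.1 CPM in the adult. Myc, which drives growth, was lower in the adult, at 5.42 CPM against 28.5 CPM at P2, a ratio of 0.191 (0.134 to 0.263). Mcl1, a survival gene, lay between 61.9 and 93.2 CPM in coronary cells of all stages. Myc, Jund and Cebpb were the 3 members that were 2-fold or more lower in adult than in P2 coronary cells.

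**Figure D2:**
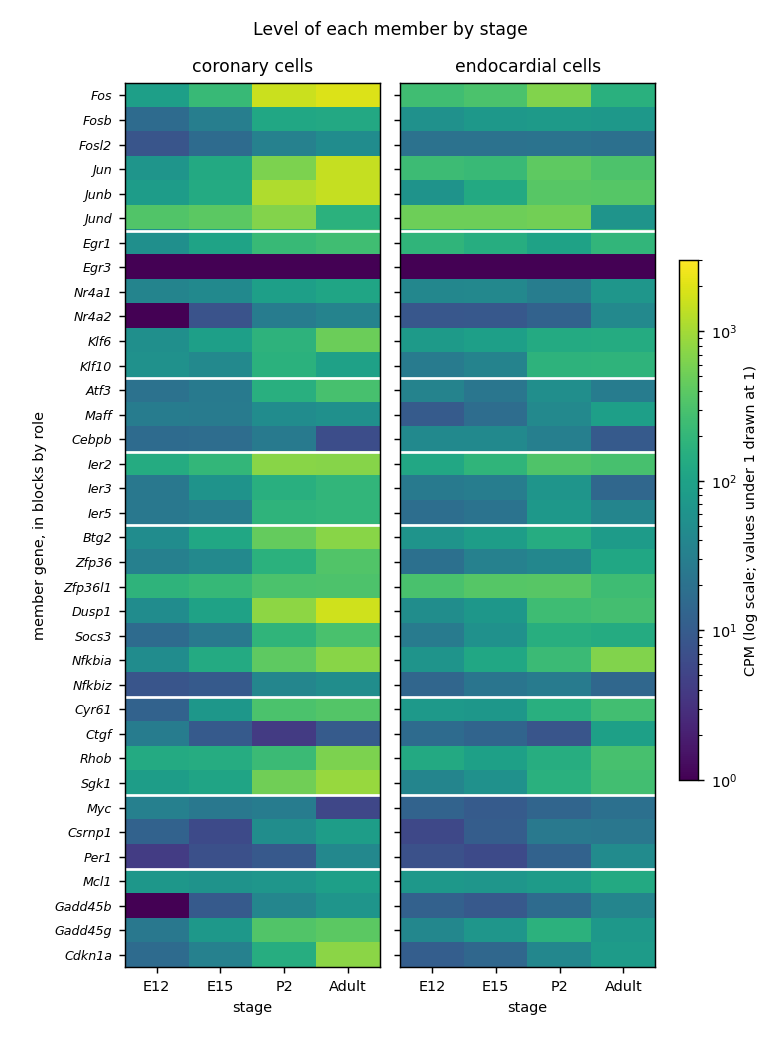
Level of each of the 36 members (rows, in blocks by role) at the 4 stages (columns) in coronary and endocardial cells; colour is CPM on a log scale, and values under 1 are drawn at 1. Fos, Jun, Junb and Dusp1 are brightest in postnatal coronary cells, at 622 to 1960 CPM, whereas Jund is dimmer in the adult in both classes, at 164 and 62.3 CPM.

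Within a stage, coronary and endocardial cells come from the same library. At E12 the summed level in coronary cells was 0.688 times (0.624 to 0.757) the endocardial level, with 2 of 26 members 2-fold or more higher (3.5% of all genes) and 7 lower (15.6%). At E15 the ratio was 0.901 (0.869 to 0.935), with 3 of 30 higher (4.74%) and 4 lower (9.56%). The lower members at E12 were Fos, Fosb, Fosl2, Jun, Egr1, Cyr61 and Cebpb, while Junb stood at 1.35 times (0.801 to 2.16) the endocardial level there. At E15 the lower members were Fosb, Socs3, Nfkbiz and Cebpb. Embryonic endocardial cells also held more fibroblast and mural markers. The fibroblast list stood at 495 CPM against 136 CPM in coronary cells at E12 and 550 against 188 CPM at E15, and the mural list at 142 against 28.8 CPM at E12. Haemoglobin made up 0.206% of endocardial against 0.0609% of coronary UMIs at E12, but 0.00924% against 0.141% at E15. In cells with an endothelial UMI and no leukocyte, fibroblast or mural UMI, the coronary level was 0.864 times (0.771 to 0.966) the endocardial level at E12, on 91 and 900 cells, and 0.956 times (0.911 to 1.002) at E15, an interval that includes 1.

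At P2 the ratio was 1.98 (1.96 to 2.01), with 17 of 35 members higher (10%) and 1 lower (8.73%). In the adult it was 3.05 (2.87 to 3.24), with 20 of 34 higher (14.5%) and 1 lower (11.2%). The lower member was Ctgf both times. The highest adult ratios were 13.7 (4.66 to 66.3) for Ier3, 12.04 (8.61 to 17.4) for Fos and 10.1 (4.62 to 27.5) for Atf3. Egr1, at 1.35 (0.984 to 1.89), and Nfkbia, at 1.11 (0.934 to 1.32), had intervals that included 1 in the adult.

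Artery cells, which after birth had Cxcl12, Glul, Alpl and Nebl, were then compared with coronary cells outside the artery class. The artery cells included some that were not in the coronary class, 32 at P2 and 16 in the adult. Of those at P2, 23 were in the endocardial class. At P2 artery cells held 1.37 times (1.36 to 1.38) the summed level of the coronary cells outside their class. Nr4a2 alone was 2-fold or more higher (1 of 35, against 2.44% of all genes), at 2.25 (1.91 to 2.66), and 0 were lower (3.46%). In the adult the ratio was 1.10 (1.09 to 1.11), with 0 of 34 members higher (1.3%) and 0 lower (1.79%). These ratios lay nearer to 1 than those of coronary to endocardial cells. The leukocyte list stood at 397 CPM in adult artery cells, with the 16 outside the coronary class included. It stood at 99.3 CPM in adult coronary cells outside the artery class. Its part in the adult ratio was not tested.

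Markers of heat shock, another response to handling and stress, were summed over 8 genes. They stood in coronary cells at 1836, 1232, 1376 and 5199 CPM and in endocardial cells at 1751, 1166, 970 and 1006 CPM. From E15 to P2 the coronary sum was 1.12 times higher (1.07 to 1.17), but its genes moved both ways, Hspa1a from 139 to 281 CPM, Dnajb1 from 52.4 to 91.1 CPM and Hspb1 from 82.1 to 154 CPM, against Hspe1 from 475 to 210 CPM. These genes were named after their values were seen. The coronary sum was 3.78 times higher (3.72 to 3.84) in the adult than at P2. In all cells of these libraries Hspa1a went from 256 to 2243 CPM and Hspb1 from 140 to 1464 CPM. Hspe1 went from 208 to 200 CPM and Hspd1 from 118 to 112 CPM, and the other genes of the list rose by fewer CPM than Hspb1. The part of heat shock in the members' levels was not tested. In E12 barcodes of 1 to 100 UMIs, which are mostly empty droplets, the members made up 4070 CPM (3925 to 4219), against 3064 CPM (3026 to 3102) in all E12 cells, so the free RNA of that library carried them as well.

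Cells of 1 class differed in how many member UMIs they held. With each cell thinned to 500 UMIs, which left out 66 of the 1254 E15 coronary cells and none of the other 3 coronary sets, the median cell held 1 member UMI at both embryonic stages and 4 at both later ones. The share with 10 or more member UMIs of 500 was 0% (up to 3.21%) for E12 and 0.0842% (0.00213 to 0.468) for E15 coronary cells. It was 17.7% (16.6 to 18.8) for P2 and 20.3% (19.0 to 21.5) for adult coronary cells. In endocardial cells the shares were 0.0589%, 0.347%, 2.50% and 0% (up to 4.80%). The upper tail was thus found in postnatal coronary cells far more than in endocardial cells of the same libraries. At the other end, 9.22% of P2 and 3.83% of adult coronary cells held no member UMI of the 500, against 36.3% at E12 and 33.1% at E15.

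The variance of the member UMIs per thinned coronary cell was 1.12 and 1.96 times the mean at E12 and E15 and 4.98 and 8.25 times the mean at P2 and in the adult. Adult endocardial cells stood at 1.52 times. This ratio grows with the mean where cells differ by the same relative amount, and the means were 1.05, 1.38, 5.30 and 6.78 member UMIs, so it does not compare the relative spread of the stages.

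**Figure D3:**
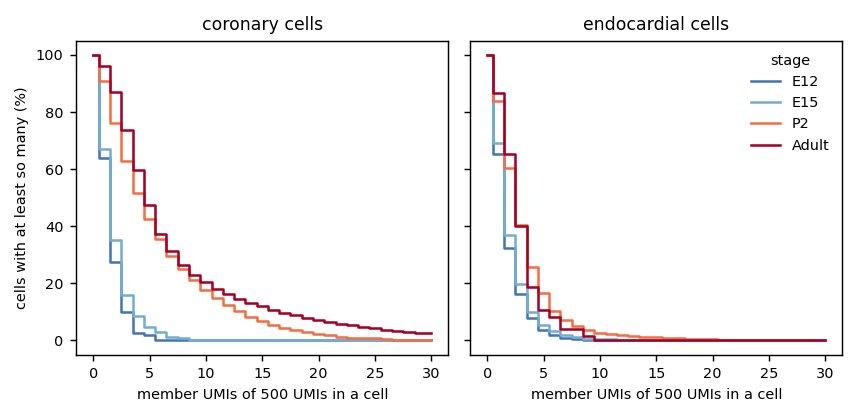
Share of cells (vertical axis, %) with at least a given number of member UMIs (horizontal axis) when each cell is thinned to 500 UMIs, for coronary and endocardial cells at the 4 stages. Of coronary cells, 17.7% at P2 and 20.3% in the adult reach 10 member UMIs, against under 1% in both embryonic libraries.

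A UMI of Fos was found in 5.31%, 7.07%, 38.6% and 29.3% of thinned coronary cells from E12 to the adult, and in 9.36%, 10.4%, 19.0% and 6.67% of thinned endocardial cells. As a background, 3 of 34 E12 barcodes in which haemoglobin made up at least 50% of the UMIs had a Fos UMI, 8.82% (1.86 to 23.7) at a median of 1834 UMIs. That share is of all UMIs of a barcode, and the shares of E12 cells with a Fos UMI among all their UMIs were 13.3% in coronary and 20.2% in endocardial cells, both within its interval. With 34 barcodes, a Fos UMI in a single E12 cell of these classes could not be told from free RNA by this share alone. E15, P2 and Adult had 6, 0 and 2 such barcodes, too few for a background.

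Cells were then split within a stage and class by a Fos UMI among 500 UMIs drawn a second time, with Fos itself left out, and the other genes were compared on all their UMIs. In P2 coronary cells 19 of 34 members were 2-fold or more higher in the 1819 cells with a Fos UMI than in the 2777 without, while 0.933% of all genes were. In adult coronary cells it was 20 of 32 (2.19%), with 1164 and 2913 cells. In P2 endocardial cells it was 13 of 33 (0.5%), with 207 and 875 cells. The E15 coronary cells gave 11 of 22 (2.76%), and the E12 and E15 endocardial cells gave 9 of 23 (2.97%) and 11 of 25 (2.06%). At E12 only 6 coronary cells, and in the adult only 7 endocardial cells, had a Fos UMI, and these were not compared.

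The members with the highest ratios spanned several roles. In P2 coronary cells Fosb was 3.64 times higher (3.35 to 3.96), Nr4a1 3.61 times (3.29 to 3.97), Atf3 3.44 times (3.21 to 3.70) and Egr1 3.42 times (3.23 to 3.64). In the adult Atf3 led at 10.8 times (9.55 to 12.1), before Fosb at 9.57 (8.05 to 11.5), Socs3 at 6.90 (6.23 to 7.65) and Junb at 6.65 (6.35 to 6.96). The adult ratios were wider apart than those of P2, where all members lay under 4. Per1 had an interval that included 1 in all 3 postnatal sets compared, and Mcl1 lay between 1.06 and 1.14 in them.

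The genes outside the list that were highest beside Fos in P2 coronary cells, among those with at least 200 UMIs, were Col1a1 at 7.12 times (5.48 to 9.36), Sfrp2 at 6.20, Hba-a1 at 5.70, Cxcl2 at 4.70 and Dlk1 at 4.08. Cxcl2 encodes a chemokine, Col1a1 a collagen chain of fibroblasts and Hba-a1 a haemoglobin chain of red cells. In adult coronary cells the leading genes were C1qc, C1qb, C1qa and Lyz2 of macrophages and again Cxcl2. The leukocyte list was 26.8 times higher (21.6 to 33.6) there in cells with a Fos UMI, the fibroblast list 2.85 times (2.68 to 3.03) and the heat shock list 3.91 times (3.83 to 3.995). The fibroblast list stood in E15 coronary cells at 1066 CPM beside Fos and 108 CPM without it. The part of these lists in the members' ratios was tested only by leaving cells out. All cells that held a leukocyte, fibroblast or mural UMI, or no UMI of Pecam1, Cdh5 or Egfl7, were removed. Then 21 members in P2 and 20 in adult coronary cells were 2-fold or more higher beside Fos. Among them were 19 of the 19 and 19 of the 20 called over all cells. The share of all genes was not taken in the cells that remained, so these counts stand without a background. In E15 cells the calls moved more, with 6 of 11 shared in coronary and 4 of 11 in endocardial cells.

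**Figure D4:**
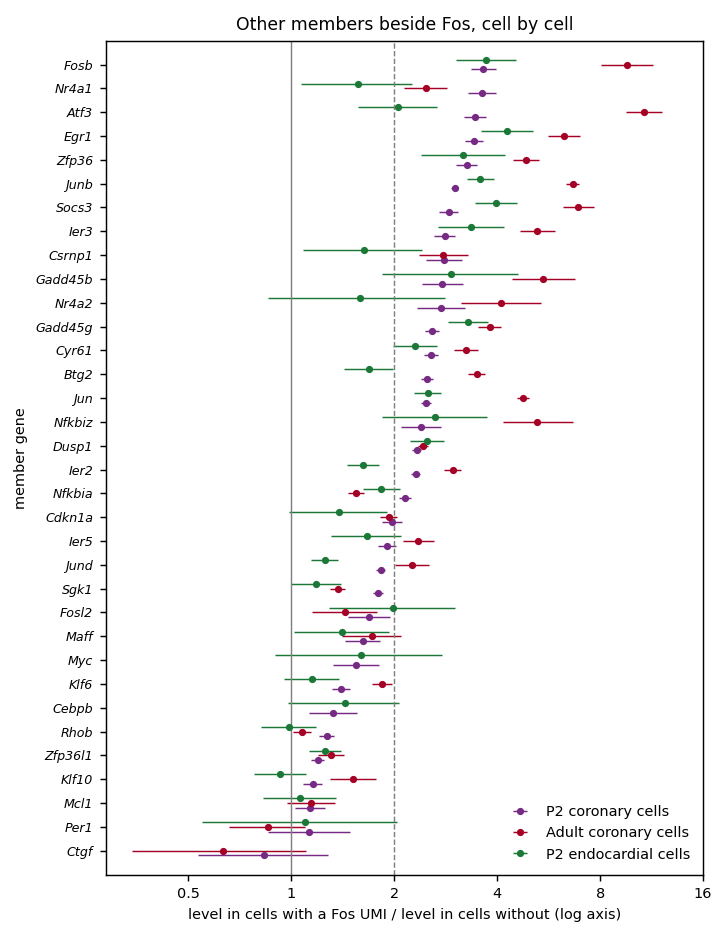
Ratio of the level of each other member in cells with a Fos UMI to that in cells without (horizontal axis, log scale) in P2 coronary, adult coronary and P2 endocardial cells; bars are exact 95% intervals, the solid line marks 1 and the dashed line 2. Of the members measured, 19, 20 and 13 lie at or beyond the dashed line, with Fosb highest in P2 coronary cells and Atf3 in adult ones.

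Correlation across cells of 1 class and library, on ln(1 + UMIs per 10000), described how members grouped; cells of a library share its depth and free RNA. In P2 coronary cells 33 members found in at least 5% of the cells gave 528 pairs, with a median Pearson r of 0.17 (all genes 0.0062). Of these, 229 pairs had an r of 0.2 or more (43.4%, against 0.102% of pairs of all genes). In adult coronary cells 149 of 465 pairs did (32.0%, against 0.0148%), at a median r of 0.13 (all genes 0.011). P2 endocardial cells had 71 of 528 (13.5%, against 0.0272%). The embryonic sets had 4 of 190 pairs in E15 coronary cells (2.1%, against 0.0168%). They had 7 of 153 in E12 endocardial (4.6%, against 0.0239%) and 3 of 153 in E15 endocardial cells (1.96%, against 0.00877%). These counts move with depth, since thinning to 500 UMIs left 13 pairs in P2 coronary, 41 in adult coronary and 2 in P2 endocardial cells and 0 in each of those embryonic sets.

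The closest pair was Fos with Junb in both postnatal coronary sets, at an r of 0.73 (n = 4596 cells) in P2 and 0.69 (n = 4077 cells) in the adult, and also in P2 endocardial cells at 0.52 (n = 1082 cells). Next in P2 coronary cells were Ier2 with Junb at 0.58 and Fos with Egr1 at 0.56. In the adult they were Socs3 with Fos at 0.57 and Jun with Fos at 0.57. Linking all pairs at 0.2 or more gave 1 set of 25 members at P2, which held AP-1 genes, Ier genes and feedback genes together. The adult set had 22 members. In embryonic endocardial cells the linked set was small, Egr1, Fos, Fosb and Junb at E15 and the same 4 with Jund at E12.

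Some members stayed outside these sets. Cebpb, Klf6, Klf10, Maff, Mcl1, Myc, Rhob and Zfp36l1 had no partner at 0.2 or more in P2 coronary cells. Sgk1 and Nfkbia had 20 and 22 such partners in P2 coronary cells but 0 in adult ones, and Jund had 20 and 5. Adult coronary cells were shallower, at a median of 1485 UMIs against 4562 at P2, and counts of partners move with depth. The E12 coronary (113 cells) and adult endocardial (75 cells) sets were too small to group members, since 3.9% and 7.44% of pairs of all genes reached 0.2 there.

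**Figure D5:**
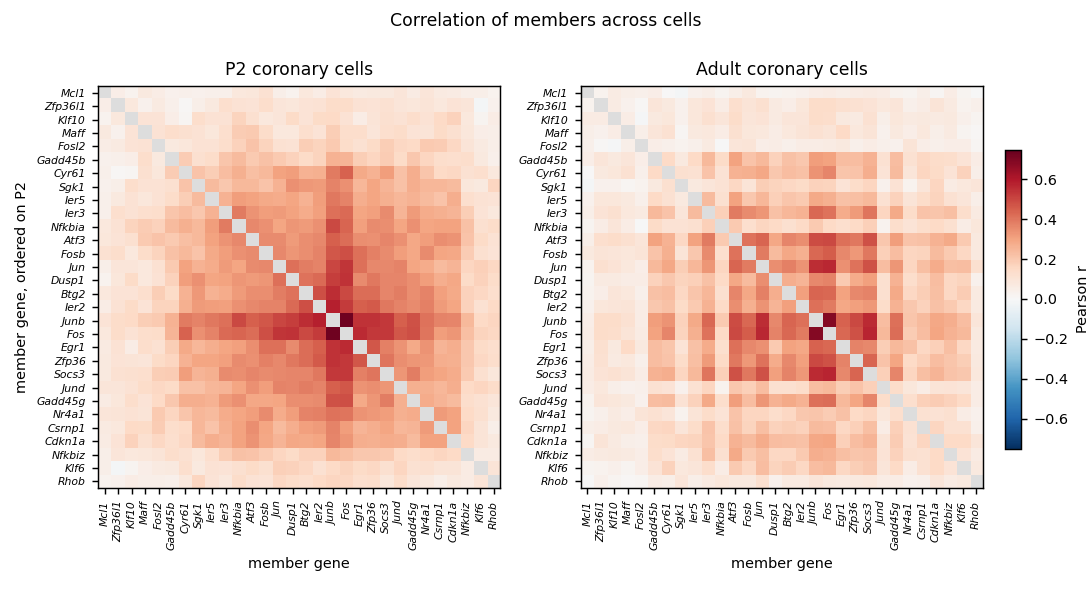
Pearson r across cells between members in P2 and adult coronary cells, with members in the same order on both axes and in both panels and the diagonal left grey. A block around Fos and Junb, whose r is 0.73 and 0.69, is seen in both panels, while Mcl1, Zfp36l1, Klf10, Maff and Rhob lie outside it.

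A further list of 35 early and feedback genes that are not members, such as Klf2, Klf4, Hes1 and Ppp1r15a, was set beside the members. In coronary cells 18 of the 28 measured were 2-fold or more higher in P2 than at E15 (17.6% of all genes) and 1 was lower (4.08%), at a median log2 ratio of 1.28. From P2 to the adult 5 of 29 were higher (9.97%) and 5 lower (12.3%), at a median log2 ratio of -0.077. Klf4, a shear stress factor, was 9.57 times higher (7.31 to 12.8) in P2 than in E15 coronary cells, and Ppp1r15a, a stress phosphatase subunit, 5.10 times (4.18 to 6.27). From P2 to the adult Hes1, a Notch target, was 0.320 times (0.306 to 0.335) and Klf2 0.390 times (0.377 to 0.403) the P2 level. Of 17 upstream regulators such as Srf, Creb1, Mapk3 and Rela only Stat3 was 2-fold or more higher in P2 than in E15 coronary cells, at 2.25 (1.65 to 3.15), and none was past 2-fold from P2 to the adult.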

How the data were processed

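Cells were captured with 10x v2 3′ chemistry. Per the submitters' processing notes, the authors used Cell Ranger 2.2 and mm10, and the deposited files hold raw UMI counts per gene and barcode, unfiltered for E12, where the 5732 barcodes with the most UMIs were kept. The authors also removed cells expressing immediate-early genes, which they considered stressed, and non-endothelial and lymphatic cells. No such removal was made here. Counts were summed per library and class. Genes with at least 50 UMIs over both groups were compared, and 2-fold or more was called higher or lower. With 1 library per stage no test was made. Intervals were exact Poisson, conditional binomial and binomial (95%). Cells were thinned to 500 UMIs for values per cell. Doublets were scored by a Scrublet-type simulation, and kept except in an alternative that dropped scores over 0.15 (221, 297, 221 and 71 cells). All members were named, and of other genes the 5 highest beside Fos in P2 coronary cells and examples of further lists. Genes named from adult cells were chosen after their values were seen. Members and lists were chosen with earlier results of these data known. Scripts were tested on simulated data. Python 3.11.15, numpy 2.4.6, scipy 1.17.1, pandas 2.3.3, scikit-learn 1.9.0 and matplotlib 3.10.9 were used.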

Additional observations from a re-analysis of the deposited data

Results flagged for a closer look

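From P2 to the adult the summed level of the members moved in opposite directions in the 2 classes, with a ratio of 1.47 in coronary cells and 0.954 in endocardial cells. With 1 library per stage the difference was not tested, and the interval of the endocardial ratio (0.896 to 1.02) includes 1.

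Barcodes of the E12 library with 1 to 100 UMIs, which no comparison used, carried the members at 4070 CPM (3925 to 4219), above the 3064 CPM of the E12 cells.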

How the results depend on the processing

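No paired analysis was possible because each stage had 1 library. No summed ratio whose interval left out 1 changed direction. Counts of members were compared by size alone, and the coronary counts from E12 to E15 turned when cells were thinned. Over 10 alternatives for each, the coronary summed ratios ranged from 1.38 to 1.54 (E15 over E12), 3.10 to 4.19 (P2 over E15) and 1.23 to 1.51 (Adult over P2), and the endocardial ones from 1.08 to 1.26, 1.46 to 1.88 and 0.802 to 1.06, the last above 1 in 2 of 10. Causes were not tested.

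The coronary P2 over E15 and Adult over P2 ratios were 3.89 and 1.42 with the study's limits on UMIs, genes and mitochondrial share per cell. Those limits left in the cells expressing immediate-early genes, which the study removed. The 2 ratios were 3.86 and 1.45 without scored doublets, 4.19 and 1.23 thinned to 500 UMIs, and 3.10 and 1.41 without haemoglobin, mitochondrial and ribosomal genes in the total. They were 3.53 and 1.48 with an endothelial UMI required and artery cells left out, 3.84 and 1.28 as means of cells, and 3.40 and 1.51 without Fos. The endocardial E15 over E12 ratio was 1.08 with the reduced total, 1.26 with stricter class limits and 1.17 with an endothelial UMI required. The endocardial P2 over E15 ratio was 1.74, 1.85, 1.46, 1.78, 1.78 and 1.64 with the study's limits, thinning, the reduced total, a required endothelial UMI, means of cells and without Fos. The endocardial Adult over P2 ratio was 0.893 with the study's limits, 0.873 thinned, 1.02 with stricter classes, 0.882 as means of cells and 1.06 without Fos.

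Members called higher and lower in coronary cells from E12 to E15 were 1 and 3 when thinned. Thinning gave 0 lower in coronary cells from E15 to P2, 4 higher from P2 to Adult, 0 higher in endocardial cells from E12 to E15, and 2 higher and 2 lower from P2 to Adult. The study's limits gave 8 lower in endocardial cells from P2 to Adult, and the reduced total 1 higher from E12 to E15. A minimum of 3 UMIs gave 2 lower in coronary cells at each of the first and second steps. A minimum of 200 gave 3 higher at the first and 0 lower at the second, and 4 higher in endocardial cells from P2 to Adult. A split by Fos UMIs as deposited gave 7 members in E15 coronary cells, and a split by a Jun UMI gave 2 in E15 coronary, 6 in P2 coronary, 0 in E12 endocardial and 2 in E15 endocardial cells. Pairs at 0.2 or more after thinning were 0 in E15 coronary, 13 in P2 coronary, 41 in Adult coronary, 0 in E12 and E15 endocardial and 2 in P2 endocardial cells.

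An alternative chosen after seeing the data left out cells with a leukocyte, fibroblast or mural UMI and cells with no UMI of Pecam1, Cdh5 or Egfl7. It gave 5 members higher in coronary cells from E12 to E15, coronary ratios of 4.11 and 1.39 with 0 members lower from E15 to P2, endocardial ratios of 1.25, 1.88 and 0.802, 7 members beside Fos in E15 endocardial cells and 0 pairs in E12 endocardial cells. It left 18 adult endocardial cells.

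Alternatives for the ratio of coronary to endocardial cells were also chosen after seeing the data. Over 10 of them the E12 ratio ranged from 0.649 to 0.864 and the E15 ratio from 0.891 to 0.956. The P2 range was 1.86 to 2.09 and the adult range 2.74 to 3.62. At E12 it was 0.763 with stricter classes and 0.759 with an endothelial UMI required and artery cells left out. It was 0.864 with an endothelial UMI required and no UMIs of other types, which gave 0.956, 2.09 and 3.62 at the later stages. At P2 it was 2.02 thinned, 1.95 with the reduced total, 2.045 with stricter classes, 1.86 with an endothelial UMI required, 2.015 as means of cells and 1.91 without Fos. In the adult it was 2.86 thinned and 2.74 without Fos.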
